A study of Mus musculus with 42 samples.

Results

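A set of 9 genes of the phagocyte NADPH oxidase and of superoxide handling were followed in bone-marrow-derived macrophages (BMDM), cells grown in culture from mouse bone marrow. They were chosen by name among 37310 genes of the count table. All 9 were found, and all 9 passed the filter on low counts. They fall into 2 roles. Cybb, Cyba, Ncf1, Ncf4 and Rac2 encode parts of the oxidase, and Sod1, Sod2, Cat and Gpx1 encode enzymes that remove superoxide or hydrogen peroxide.

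The phagocyte oxidase is a membrane complex that takes electrons from NADPH and hands them to oxygen, which makes superoxide. Its catalytic core sits in the membrane, and cytosolic subunits and a Rac GTPase join it when the cell is activated. Superoxide is turned into hydrogen peroxide by superoxide dismutases, and the peroxide is broken down by catalase, glutathione peroxidases and peroxiredoxins. In macrophages the complex is known for its part in killing ingested microbes and in signalling by oxidants.

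All mice were males. Those labelled KO came from Irf5 flox/flox animals crossed with LysM-Cre, a Cre recombinase placed in the Lyz2 gene and active in myeloid cells, and the others are labelled WT, a label that names no alleles. Irf5 encodes interferon regulatory factor 5, a transcription factor that acts downstream of Toll-like receptors. Untreated cells of each genotype (Control) were taken at 0, 2 and 24 h. Treated cells received palmitate or bacterial lipopolysaccharide (LPS) and were taken after 2 and 24 h. LPS activates Toll-like receptor 4, and palmitate is a saturated fatty acid used to load cells with lipid. Whether the Control cells received the solvent of palmitate is not given in the sources used here. Each of the 14 groups held 3 libraries, and nothing in the labels says that they came from separate mice, so the spread between them may be technical.

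Total counts per library lay between 2848793 and 7743442, and the 9 genes took 0.41 to 0.921% of them. The lowest count of any of the 9 genes in any library was 269, for Ncf4, so none was near the detection floor of 3 counts. The macrophage markers Adgre1, Csf1r, Cd68, Itgam, Mertk and Fcgr1 summed to between 4710 and 8747 CPM in every library. For CPM each count was scaled by its library total and by the normalisation named below. The known target genes moved with the treatment labels, since Tnf, Il1b and Nos2 rose with LPS and Plin2 and Angptl4 rose with palmitate in both genotypes and at both times. The label KO was not mirrored in the count of Irf5, which was 220.5 ± 10.4 CPM (SD, n = 3) in WT and 305 ± 24.2 CPM in libraries labelled KO at Control 0 h, and was not lower in KO-labelled libraries in any of the 7 conditions. Irf5 was called higher in KO-labelled libraries at Control 0 h, Control 2 h, palmitate 24 h and LPS 24 h. The count is taken over the whole gene and does not show whether an exon was removed. Lyz2, which carries the Cre, was lower in KO-labelled libraries in 7 of 7 conditions, by 0.51 to 1.11 on the log2 scale. Since the count of Irf5 did not mirror the label, directions between genotypes rest on the labels.

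By the GENCODE annotation of GRCm38 (mm10), matched by gene identifier, the oxidase genes lie on 4 chromosomes. Cybb (ENSMUSG00000015340) is on X (chrX:9435252-9487771, minus strand), Cyba (ENSMUSG00000006519) on 8 (chr8:122424776-122432930, minus) and Ncf1 (ENSMUSG00000015950) on 5 (chr5:134220053-134229625, minus). Ncf4 (ENSMUSG00000071715, chr15:78244801-78262580, plus) and Rac2 (ENSMUSG00000033220, chr15:78559167-78572783, minus) share chromosome 15. Of the enzymes, Sod1 (ENSMUSG00000022982) is at chr16:90220754-90226329 (plus), Sod2 (ENSMUSG00000006818) at chr17:13006846-13040063 (plus), Cat (ENSMUSG00000027187) at chr2:103453849-103485160 (minus) and Gpx1 (ENSMUSG00000063856) at chr9:108338903-108340343 (plus). Values are for whole genes, exons together.

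Levels are CPM scaled by the trimmed mean of M values (TMM). Fold changes and adjusted p-values come from edgeR's quasi-likelihood test with Benjamini-Hochberg adjustment over 11624 genes, with 0.05 as the limit below which a gene counts as called. In bulk RNA, more transcript per cell and more cells of a type cannot be told apart. The plot of levels shows every library.

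**Figure D1:**
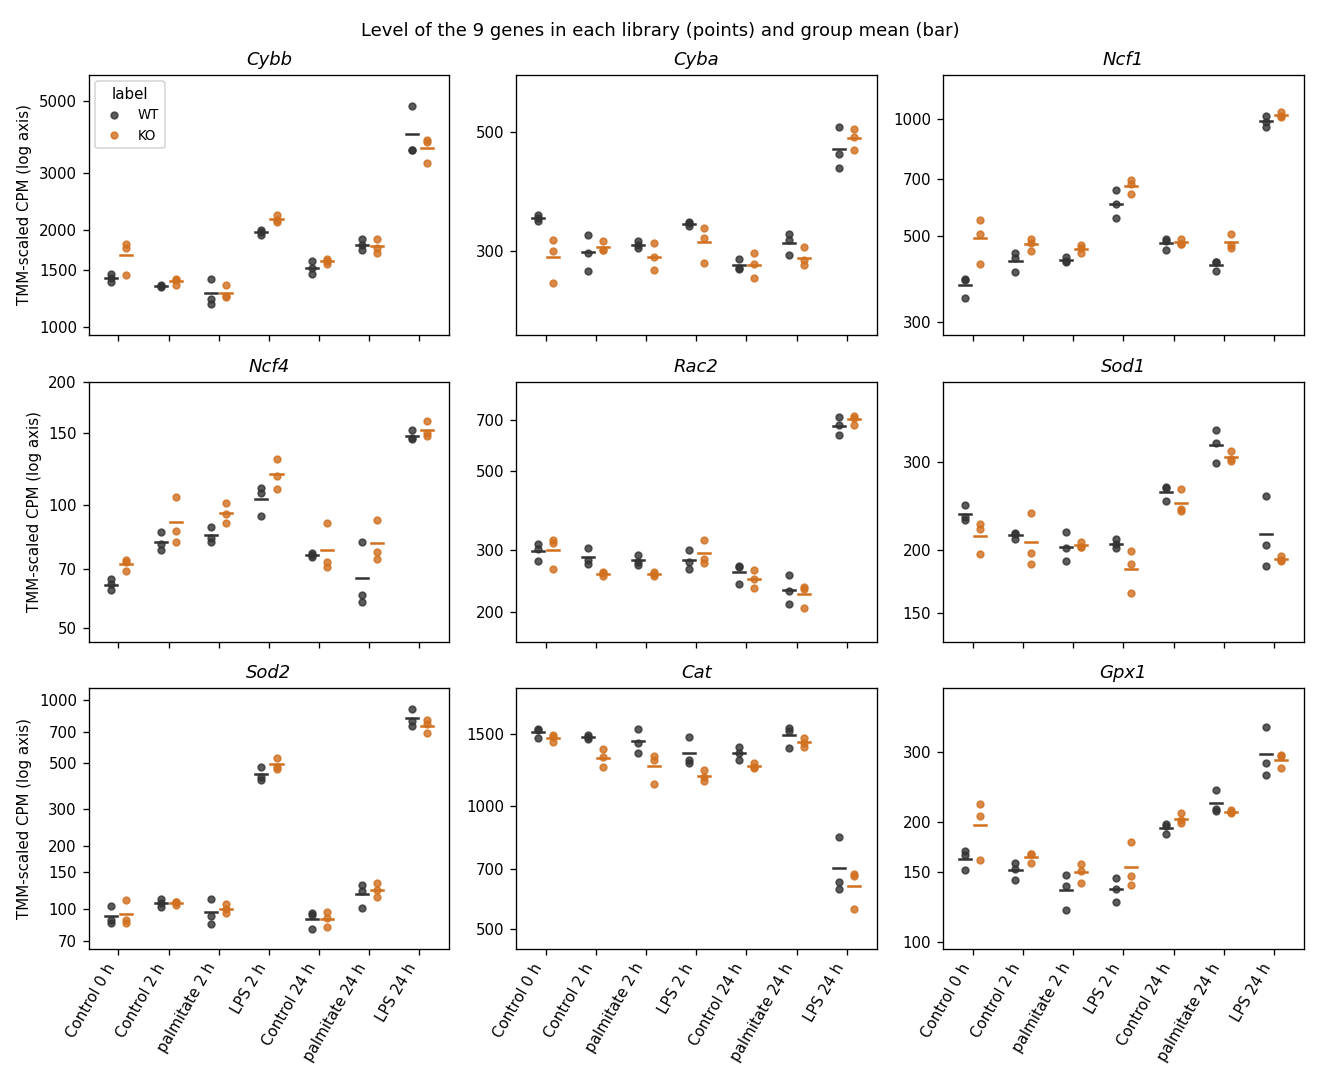
Level of each of the 9 genes, as TMM-scaled CPM on a log axis, in each library (points) with the group mean (bars), for 7 conditions and both genotype labels. In WT, Sod2 stood 4.14-fold higher after 2 h of LPS and 9.16-fold higher after 24 h, and Cat fell to 0.524 times its Control level at 24 h.

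In untreated WT cells at 24 h the order of the 9 genes was led by Cat and closed by Sod2. In RPKM, CPM divided by the length in kilobases of all annotated exons together, WT Control 24 h libraries held 515 ± 18.4 RPKM of Cat (SD, n = 3), 271 ± 6.36 of Cyba, 263 ± 13 of Cybb, 134 ± 3.89 of Gpx1, 131 ± 4.51 of Ncf1, 83.8 ± 5.41 of Rac2, 65.8 ± 2.30 of Sod1, 37.4 ± 0.418 of Ncf4 and 8.99 ± 0.827 of Sod2. Cyba and Cybb overlapped between libraries, as did Gpx1 and Ncf1, and every other pair of neighbours in this order was separate. After 24 h of LPS in WT, Cybb led with 682 ± 128 RPKM, followed by Cyba with 447 ± 40.9. Cat and Ncf1 came next and overlapped, with 269.8 ± 44.4 and 269 ± 8.37 RPKM, then Rac2 and Gpx1, which also overlapped, with 217 ± 12.7 and 206 ± 30.8. Sod2 reached 82.0 ± 7.99 RPKM and overlapped with Ncf4 at 73.1 ± 2.03, and Sod1 was last at 54.3 ± 9.20.

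The place of Sod1 in this order depended on the length assumed for its transcript. Its annotated exons cover 3970 bases together, and its principal isoform (tagged APPRIS principal) has 641 bases. With principal isoforms, an alternative chosen after seeing the data, Sod1 was second in WT Control 24 h at 408 ± 14.2 RPKM, and after LPS it stood at 337 ± 57.0 and overlapped with its neighbours in the order, Ncf1 and Gpx1. Under both lengths Cat remained first in WT Control 24 h and Cybb first in WT LPS 24 h, and Sod2 remained last in WT Control 24 h.

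**Figure D2:**
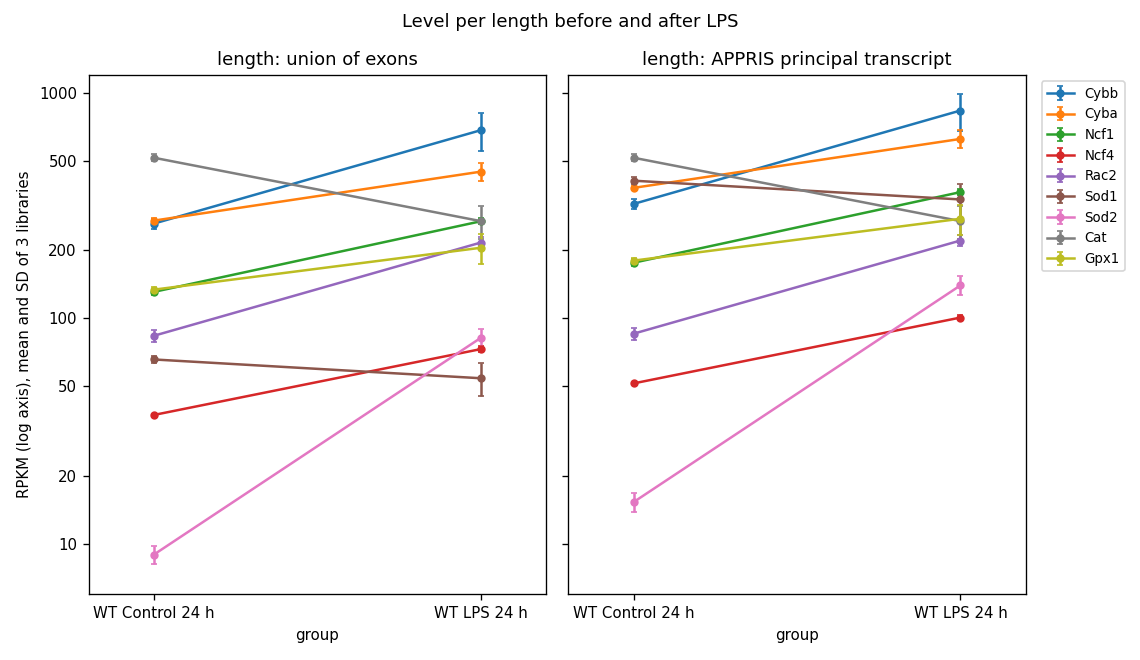
Level per length (RPKM, log axis) of the 9 genes in WT Control 24 h and WT LPS 24 h, as the mean of 3 libraries with SD, with 2 definitions of transcript length. Cat leads in Control and Cybb after LPS in both panels, and the line of Sod1 lies higher in the right panel, where its length is 641 instead of 3970 bases.

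After 2 h of LPS the mitochondrial dismutase and part of the oxidase had risen. Of the 9 genes, 5 were called higher in WT and 4 in KO-labelled libraries, and 0 were called lower. Over all genes tested, 23.1% were called in WT and 23.9% in KO-labelled libraries. After 24 h all 9 genes were called in both genotypes, 7 of them higher and 2 lower, where 39.5% of all genes were called in WT (2280 higher and 2314 lower) and 40.9% in KO-labelled libraries (2310 higher and 2440 lower). The median log2 fold change of the 9 genes at 24 h was 0.97 in WT and 0.96 in KO-labelled libraries, and that of all genes was -0.0113 and -0.00949. At 24 h the libraries of LPS and Control did not overlap for 8 of 9 genes in WT and 9 of 9 in KO-labelled libraries. The share of all genes without overlap is not given here, so these counts only describe the 9 genes. None of these LPS calls turned its direction under an alternative setting.

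**Figure D3:**
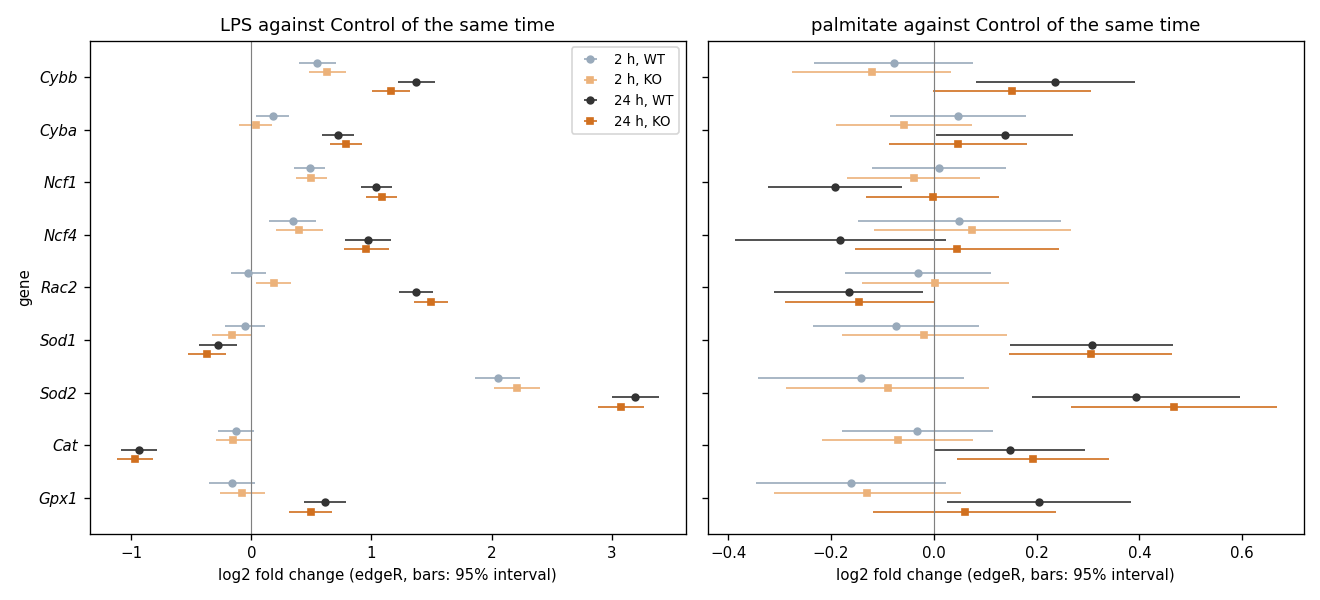
Log2 fold change of each gene against Control of the same time and genotype (x axis; bars are 95% intervals from edgeR), for LPS on the left and palmitate on the right, whose x axes differ in scale. After LPS the intervals of 24 h (dark) lie further from 0 than those of 2 h (light) for most genes, with Sod2 farthest to the right and Cat farthest to the left. After palmitate the intervals of Sod1 and Sod2 at 24 h exclude 0 in both genotypes.

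The promoters of 4 genes that moved with LPS are shown for their sequence, Cybb, Ncf1 and Sod2, which rose, and Cat, which fell. Promoters of 7 of the 9 genes were taken from RefSeq (build GRCm38.p6), each from 250 bases before the annotated start to 50 after it and written along the gene's own strand. Capitals mark matches, on either strand, to 4 motifs chosen by name: the PU.1 core GAGGAA, an NF-kappaB site (GGG, any 2 bases, TTTCC), an interferon response element (GAAA, any 2 bases, GAAA) and an antioxidant response element (TGAC, any 3 bases, GC). Cybb is on chromosome X, minus strand (chrX:9469275-9469574), Ncf1 on chromosome 5, minus strand (chr5:134229576-134229875), Sod2 on chromosome 17, plus strand (chr17:13007589-13007888), and Cat on chromosome 2, minus strand (chr2:103485104-103485403).
Cybb: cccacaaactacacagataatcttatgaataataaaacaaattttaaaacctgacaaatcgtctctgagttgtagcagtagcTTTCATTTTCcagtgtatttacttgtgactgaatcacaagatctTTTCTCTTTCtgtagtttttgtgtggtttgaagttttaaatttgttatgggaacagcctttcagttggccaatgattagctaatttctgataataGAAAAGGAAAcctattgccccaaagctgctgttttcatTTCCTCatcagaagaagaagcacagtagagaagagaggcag
Ncf1: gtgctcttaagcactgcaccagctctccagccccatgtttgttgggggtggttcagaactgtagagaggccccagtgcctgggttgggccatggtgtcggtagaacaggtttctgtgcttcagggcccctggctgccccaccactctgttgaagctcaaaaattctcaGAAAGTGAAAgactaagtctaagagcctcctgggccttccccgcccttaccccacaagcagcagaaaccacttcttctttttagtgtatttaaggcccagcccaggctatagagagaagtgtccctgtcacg
Sod2: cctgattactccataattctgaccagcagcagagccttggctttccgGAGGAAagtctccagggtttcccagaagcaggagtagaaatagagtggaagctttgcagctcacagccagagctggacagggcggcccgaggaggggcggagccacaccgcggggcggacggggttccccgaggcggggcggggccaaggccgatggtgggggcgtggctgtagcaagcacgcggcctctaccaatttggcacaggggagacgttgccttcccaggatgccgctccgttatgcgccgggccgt
Cat: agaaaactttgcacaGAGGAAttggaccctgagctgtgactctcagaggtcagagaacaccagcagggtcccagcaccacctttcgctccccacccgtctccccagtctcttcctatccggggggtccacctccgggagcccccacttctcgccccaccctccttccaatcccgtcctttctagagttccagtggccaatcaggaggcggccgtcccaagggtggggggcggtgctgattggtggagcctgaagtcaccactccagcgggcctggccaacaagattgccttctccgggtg
The Cybb promoter held 3 matches to the interferon response motif, beginning at -168, -124 and -29 from the start, and 1 to the PU.1 core at 10, and Ncf1 held 1 interferon response match at -82. Sod2 and Cat each held 1 PU.1 core, at -203 and -235. Of the 3 others with a promoter, Sod1 held 1 antioxidant response match, and Cyba and Gpx1 held none of the 4. No 2 matches overlapped. Among 32544 mouse promoters of the same length, 3.45% held the interferon response motif, 28.1% the PU.1 core, 12.4% the antioxidant response motif and 1.61% the NF-kappaB motif, which none of the 7 promoters held. The GENCODE spans of Cybb and Sod2 begin upstream of the RefSeq starts used here. These letters say nothing about whether a factor was bound.

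Sod2, the dismutase of the mitochondrial matrix, showed the largest change of the 9 genes. In WT it was 111, 107 and 102 CPM in the 3 libraries of Control 2 h and 429.7, 477 and 416 CPM in those of LPS 2 h. In KO-labelled libraries it was 107, 108 and 105 CPM in Control 2 h and 470.4, 531 and 480.1 CPM in LPS 2 h. Every LPS library thus lay above every Control library, and the log2 fold change was 2.05 ± 0.0943 (SE) in WT (adjusted p = 2.79e-24) and 2.21 ± 0.0947 (SE) in KO-labelled libraries (adjusted p = 1.3e-25). At 24 h the WT libraries held 93.5, 96 and 80.6 CPM in Control and 799, 909.7 and 755 CPM after LPS. The KO-labelled libraries held 90.6, 97 and 81.8 CPM in Control and 767, 694 and 806 CPM after LPS. Again no libraries overlapped, and Sod2 was 9.16-fold higher in WT and 8.44-fold higher in KO-labelled libraries. Sod2 shares a stretch of 3110 bases at up to 98.3% identity with a transcript of Rps6ka2, so reads from that stretch may not have been assigned to it, and its level is uncertain to that extent.

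Sod1, the dismutase of the cytosol, did not share this rise. At 2 h it was not called in either genotype (log2 fold change -0.05 in WT and -0.17 in KO-labelled libraries). At 24 h the WT libraries held 251, 267 and 266 CPM in Control and 186, 256 and 205 CPM after LPS. The KO-labelled libraries held 265, 241 and 239.7 CPM in Control and 191, 190.1 and 195 CPM after LPS. Sod1 fell in both, by 0.28 ± 0.0797 (SE) on the log2 scale in WT (adjusted p = 0.00392) and by 0.37 ± 0.0802 (SE) in KO-labelled libraries (adjusted p = 0.000155). In WT, library 2 of LPS 24 h lay inside the range of the Control libraries. The call in WT was lost without library 1 of LPS 24 h, where the log2 fold change was -0.18 (adjusted p = 0.0939). Scaf4 lies on the other strand and overlaps 650 bases of the span of Sod1, with counts that came to 35.9% of those of Sod1, and a pseudogene copy, Gm8566, matches it over 465 bases but held at most 5 counts in a library.

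The counts of the 2 dismutases were set against each other within each library, which needs no scaling. The ratio of Sod2 to Sod1 counts was 0.345 ± 0.0376 (SD, n = 3) in WT Control 24 h and 3.84 ± 0.401 in WT LPS 24 h. In KO-labelled libraries it was 0.362 ± 0.0350 and 3.94 ± 0.254. After 2 h of LPS it stood between these values, at 2.14 ± 0.112 in WT and 2.7 ± 0.254 in KO-labelled libraries. In every group without LPS it stayed between 0.302 and 0.578. The ratio was above 1 in each LPS library and below 1 in each other library.

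**Figure D4:**
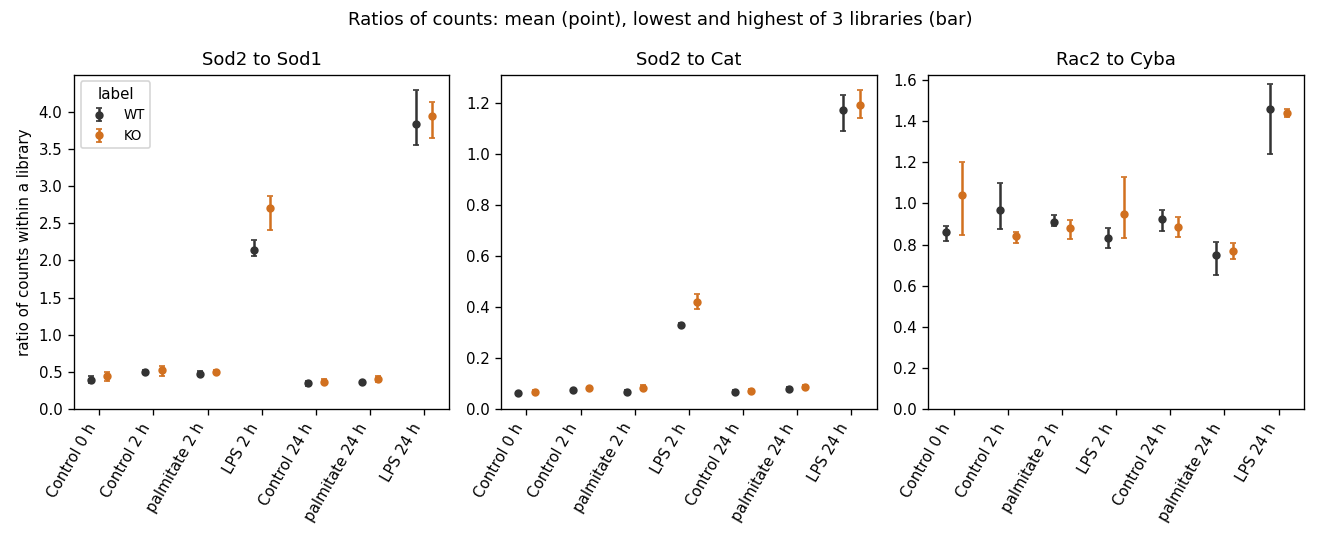
Ratio of counts within a library for Sod2 to Sod1, Sod2 to Cat and Rac2 to Cyba (y axes start at 0), as the mean (points) with the lowest and highest of 3 libraries (bars) in 7 conditions and both genotype labels. Both ratios of Sod2 are higher after 2 h of LPS and highest after 24 h, with Sod2 to Sod1 at 3.84 in WT and 3.94 in KO-labelled libraries, and Rac2 to Cyba stands above all other groups after 24 h of LPS.

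Of the enzymes that remove hydrogen peroxide, one fell and one rose. Cat, which encodes the peroxisomal catalase, held 1296, 1348 and 1392 CPM in WT Control 24 h and 651, 838 and 626 CPM in WT LPS 24 h. In KO-labelled libraries it held 1274, 1239.9 and 1244 CPM in Control and 675, 558 and 682 CPM after LPS. All LPS libraries lay below all Control libraries, a fall of 0.93 ± 0.0742 (SE) on the log2 scale in WT (adjusted p = 2.79e-15) and of 0.97 ± 0.0744 (SE) in KO-labelled libraries (adjusted p = 6.65e-16). At 2 h the log2 fold changes were -0.13 and -0.15, and neither was called. Counts of Sod2, 0.0671 times those of Cat in WT Control 24 h, were 1.17 times those of Cat in WT LPS 24 h.

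Gpx1, the cytosolic glutathione peroxidase, moved the other way. It held 187, 198 and 195 CPM in WT Control 24 h and 262, 346 and 281 CPM in WT LPS 24 h. The KO-labelled libraries held 202, 210.3 and 198 CPM in Control and 273, 294 and 292 CPM after LPS. The groups did not overlap, and Gpx1 was 1.53-fold higher in WT (adjusted p = 7.45e-08) and 1.41-fold higher in KO-labelled libraries (adjusted p = 6.3e-06). At 2 h its log2 fold changes were -0.16 and -0.07, not called. Library 2 of WT LPS 24 h was the highest of its group for Gpx1, Cat, Sod1, Sod2, Cybb, Cyba and Ncf1, and also had the highest macrophage marker sum (8747 CPM). Without it Gpx1 and Cat were still called.

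All 5 oxidase genes rose by 24 h of LPS, and 3 of them had risen at 2 h in both genotypes. The summed macrophage markers moved with them and lay between 7682 and 8747 CPM in the 6 libraries of LPS 24 h against at most 5423 CPM in any other library. Of these 6 markers 4 were called higher and 2 lower in each genotype, with log2 fold changes in WT from -0.45 for Mertk to 3.46 for Fcgr1, and their part in the rise of the oxidase genes was not tested. Cybb, the catalytic subunit that carries the electrons across the membrane, held 1520.1, 1456 and 1607 CPM in WT Control 24 h and 3532, 4819 and 3532 CPM in WT LPS 24 h. In KO-labelled libraries it held 1608, 1569 and 1622 CPM in Control and 3779, 3226 and 3736 CPM after LPS. The groups were separate, and Cybb was 2.59-fold higher in WT and 2.24-fold higher in KO-labelled libraries (adjusted p = 8.83e-21 and 4.18e-18). At 2 h it was already 1.46-fold and 1.55-fold higher, with 1356, 1332 and 1344 CPM in WT Control 2 h against 1975, 1993 and 1931 CPM in WT LPS 2 h.

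Cyba encodes the membrane subunit that pairs with the product of Cybb and holds it stable. It held 277, 289 and 279 CPM in WT Control 24 h and 427, 511 and 455 CPM in WT LPS 24 h. The KO-labelled libraries held 283, 296 and 267 CPM in Control and 462, 506 and 489 CPM after LPS. With no overlap, Cyba rose 1.65-fold in WT and 1.72-fold in KO-labelled libraries (adjusted p = 2.83e-13 and 1.43e-14), the smallest rise of the 5 oxidase genes. At 2 h it was called in WT at a log2 fold change of 0.18 (adjusted p = 0.0486), a call lost in 8 of 10 alternative settings, among them without library 1 or 2 of Control 2 h and without any 1 of the 3 LPS 2 h libraries, with adjusted p-values up to 0.307. In KO-labelled libraries its log2 fold change at 2 h was 0.04, and it was not called.

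Ncf1 encodes the organiser subunit that is phosphorylated on activation and brings the cytosolic subunits to the membrane. It held 461, 492 and 487 CPM in WT Control 24 h and 958, 1019 and 985 CPM in WT LPS 24 h. In KO-labelled libraries it held 478, 477 and 492 CPM in Control and 1041, 1013 and 1016 CPM after LPS. These groups were separate and closely spaced, and the log2 fold change was 1.04 ± 0.0641 (SE) in WT and 1.08 ± 0.0641 (SE) in KO-labelled libraries (adjusted p = 2.71e-19 and 4.59e-20). At 2 h it was 1.4-fold and 1.41-fold higher, called in both. The neighbouring gene Gtf2ird2 overlaps 408 exon bases of Ncf1 on the other strand, and its counts came to 1.96% of those of Ncf1.

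Ncf4, which encodes a cytosolic subunit that binds phagosome lipids, was the lowest oxidase gene. It held 75.5, 76.3 and 74.6 CPM in WT Control 24 h and 145, 145 and 152 CPM in WT LPS 24 h. Under the KO label it held 72.5, 70.7 and 90.2 CPM in Control and 147, 160.0 and 149.9 CPM after LPS. No libraries overlapped, and Ncf4 was 1.96-fold higher in WT and 1.94-fold higher in KO-labelled libraries (adjusted p = 3.29e-12 and 3.31e-12). At 2 h its log2 fold changes were 0.34 and 0.40, called in both.

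Rac2, the haematopoietic Rac GTPase that switches the complex on, was called higher at 24 h of LPS and not at 2 h. It held 303, 274 and 281 CPM in WT Control 2 h and 264, 299 and 277 CPM in WT LPS 2 h, and these libraries overlapped. By 24 h the WT libraries held 269, 270.5 and 241 CPM in Control and 674, 632 and 712 CPM after LPS. Under the KO label it held 263, 249 and 234 CPM in Control and 676, 717 and 709 CPM after LPS. The groups of 24 h did not overlap, and Rac2 was 2.59-fold and 2.82-fold higher (adjusted p = 1.95e-22 and 6.03e-24). In KO-labelled libraries its log2 fold change at 2 h was 0.19 (adjusted p = 0.0544), just short of a call. There the libraries did not overlap, with 252.4 to 259.2 CPM in Control 2 h and 274.9 to 320.4 CPM in LPS 2 h. Within a library the ratio of Rac2 to Cyba counts was 0.923 ± 0.0538 (SD, n = 3) in WT Control 24 h and 1.46 ± 0.192 in WT LPS 24 h, and 0.883 ± 0.0470 and 1.44 ± 0.0233 in KO-labelled libraries.

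The change of the LPS effect between 2 and 24 h was tested for each gene over both genotypes. All 9 genes were called, against 46.3% of all genes. The effect grew for the 5 oxidase genes, by 0.57 for Ncf1, 0.59 for Ncf4, 0.65 for Cyba, 0.68 for Cybb and 1.36 for Rac2 on the log2 scale, and for Sod2 by 1.01 and Gpx1 by 0.67. It became more negative for Cat (-0.81) and for Sod1 (-0.21, adjusted p = 0.0268). The call for Sod1 was lost in 11 of 28 alternative settings, each of them leaving out 1 library, with adjusted p-values up to 0.106.

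Other partners of the oxidase were read as a list of 15 genes, of which 8 passed the filter on low counts. The other 7, Nox1, Nox3, Nox4, Noxo1, Noxa1, Duox1 and Duox2, belong to other NADPH oxidases and held at most 16 counts in a library. At 24 h of LPS 5 of the 8 were called higher and 0 lower in each genotype, where 39.5% of all genes were called in WT and 40.9% in KO-labelled libraries in either direction, with median log2 fold changes of 0.47 in WT and 0.40 in KO-labelled libraries against the -0.0113 and -0.00949 of all genes. Arhgdib, an inhibitor that holds Rac proteins in the cytosol, rose by 1.23 and 1.12 on the log2 scale, and Cybc1, a chaperone of the membrane core, by 0.72 and 0.79. At 2 h the largest rises were those of Prkcd, a kinase that phosphorylates the organiser subunit (0.53 and 0.64), and Hvcn1, a proton channel (0.32 and 0.36), and Cybc1 was lower in KO-labelled libraries (-0.27).

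Of 12 other enzymes of superoxide and peroxide removal, 9 were tested. At 24 h of LPS 3 were higher and 1 lower in WT, and 4 higher and 2 lower in KO-labelled libraries, beside the 39.5% and 40.9% of all genes called, with medians of 0.14 and 0.05 against -0.0113 and -0.00949 for all genes. Prdx5, a peroxiredoxin of mitochondria and peroxisomes, rose by 2.14 and 2.07 on the log2 scale, and Prdx2, a cytosolic peroxiredoxin, by 0.99 and 0.86. Gpx3, a secreted glutathione peroxidase, fell by 1.86 and 1.68, and Prdx1 fell by 0.25 in KO-labelled libraries. Prdx5 was the single gene of this list called at 2 h (0.46 in WT and 0.66 in KO-labelled libraries).

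The thiol recycling list, 9 genes that keep glutathione and thioredoxin reduced, split at 24 h of LPS into 3 higher and 4 lower in each genotype, beside 39.5% of all genes called in WT and 40.9% in KO-labelled libraries, with medians of -0.20 and -0.12. Glrx (glutaredoxin) rose by 1.48 and 1.74, and Txn1 (thioredoxin) by 0.72 and 0.77. Gclc, the catalytic subunit of the first enzyme of glutathione synthesis, fell by 1.93 and 1.67, and Srxn1, which repairs oxidised peroxiredoxins, by 1.15 and 0.93. At 2 h Txnrd1, thioredoxin reductase, was called higher (0.54 and 0.64), as was Glrx (0.43 and 0.73), and Gclc (-0.43 and -0.44) and its partner subunit Gclm (-0.32 and -0.35) were called lower.

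Of 6 genes that supply NADPH, the fuel of the oxidase, 0 were called higher and 3 lower at 24 h of LPS in each genotype, a share near the 39.5% and 40.9% of all genes called, with medians of -0.16 and -0.14. Nnt, the transhydrogenase of mitochondria, fell by 0.66 in WT and 0.59 in KO-labelled libraries, and Idh1 by 0.26 and 0.26. At 2 h G6pdx and Pgd, of the pentose phosphate pathway, were called lower in WT (-0.21 and -0.21). No gene of this list was called at 2 h in KO-labelled libraries.

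The LPS effect was then compared between genotypes. Of the 9 genes 0 were called at 2 h or at 24 h by edgeR or by DESeq2, where 0% and 0.0086% of all genes were called by edgeR. Over all genes 810 and 628 passed an unadjusted p under 0.05, and DESeq2 called 1 and 2. With LPS, the difference farthest above 0 was that of Rac2 at 2 h (0.21 on the log2 scale, adjusted p = 0.7), and the one farthest below 0 that of Cybb at 24 h (-0.21, adjusted p = 0.93). Over all 9 genes, both treatments and both times, the 36 differences lay between -0.21 and 0.23, and the bounds of their 95% intervals between -0.43 and 0.51, with 2 of the 36 at an unadjusted p under 0.05.

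Palmitate moved fewer of the 9 genes and by less. At 2 h 0 of 9 were called in either genotype, where 0.275% of all genes were called in WT and 0.112% in KO-labelled libraries. None of the 18 comparisons passed an unadjusted p under 0.05 either, DESeq2 called 0, and the log2 fold changes lay between -0.16 and 0.07. Over all genes 866 in WT and 536 in KO-labelled libraries passed the unadjusted limit. At 24 h the 2 dismutases were called higher in each genotype, against 0.852% of all genes in WT and 0.877% in KO-labelled libraries. A difference of the palmitate response between genotypes was called for 0 of 9 genes at 2 h and at 24 h, by edgeR and by DESeq2, where edgeR called 0% of all genes at both times, with 486 and 411 genes at an unadjusted p under 0.05.

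Sod1 held 346, 298 and 327 CPM in WT palmitate 24 h, above its Control 24 h libraries at 251, 267 and 266. In KO-labelled libraries it held 315, 300.4 and 304 CPM with palmitate against 265, 241 and 239.7 CPM in Control. Neither pair of groups overlapped, and the log2 fold change was 0.31 ± 0.0787 (SE) in WT (adjusted p = 0.0386) and 0.31 ± 0.0788 (SE) in KO-labelled libraries (adjusted p = 0.0414).

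Sod2 held 130.2, 101 and 122 CPM in WT palmitate 24 h against 93.5, 96 and 80.6 CPM in Control 24 h. With the KO label it held 114, 124 and 133 CPM with palmitate against 90.6, 97 and 81.8 CPM in Control. These groups did not overlap either, and the log2 fold change was 0.39 ± 0.101 (SE) in WT (adjusted p = 0.0384) and 0.47 ± 0.0994 (SE) in KO-labelled libraries (adjusted p = 0.00578). The rise of Sod2 with LPS and with palmitate was measured against the same Control 24 h libraries. The calls of both dismutases hung on single libraries. In WT both were lost without any 1 of the 3 Control 24 h libraries or without library 1 or 3 of palmitate 24 h, with adjusted p-values up to 0.276 for Sod1 and 0.34 for Sod2. In KO-labelled libraries Sod1 was lost with RLE size factors and without library 2 or 3 of Control 24 h or any 1 of palmitate 24 h (up to 0.208), and Sod2 without library 3 of either group (up to 0.106).

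Of the 7 genes not called with palmitate at 24 h, Cybb had log2 fold changes of 0.24 in WT and 0.15 in KO-labelled libraries, and Cat of 0.15 and 0.19. Rac2 lay at -0.17 and -0.15. The test of the palmitate effect at 24 h against 2 h called 3 of 9 genes, where 1.28% of all genes were called. These were Sod2 (0.55 on the log2 scale, adjusted p = 0.000765), Sod1 (0.35, adjusted p = 0.01) and Cybb (0.29, adjusted p = 0.0354). The call for Cybb was lost in 16 of 28 alternative settings, each without 1 library, with adjusted p-values up to 0.0951. Of the 4 pathway lists, 0 genes were called with palmitate against Control at 24 h in either genotype.

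In Control cells without treatment times were compared as the average over both genotype labels. Between 0 and 2 h 3 of 9 genes were called, where 16.7% of all genes were. The averaged log2 fold change was 0.34 for Ncf4, -0.17 for Cybb and -0.18 for Gpx1. Group means of Cybb went from 1422 to 1344 CPM in WT and from 1674 to 1391 CPM in KO-labelled libraries. The call of Cybb was lost without library 1 or 3 of KO Control 0 h or library 2 of KO Control 2 h (adjusted p up to 0.101), and that of Gpx1 in 9 of 16 alternative settings, each without 1 library (up to 0.213). Between 0 and 24 h 5 of 9 were called, where 16.5% of all genes were. The averaged log2 fold change was 0.17 for Ncf1, 0.18 for Sod1, -0.23 for Rac2, -0.20 for Cat and -0.17 for Cyba. For Ncf1 the average covers unlike values, since its group mean went from 373 to 480.1 CPM in WT and from 494 to 483 CPM in KO-labelled libraries, and this difference was itself called (adjusted p = 0.0121). The mean of Cyba went from 345 to 282 CPM in WT and from 291 to 282 CPM in KO-labelled libraries, a difference that was not called. Of these, Cyba was lost without library 2 of KO Control 0 h (adjusted p = 0.0507), and Sod1 without that library or library 1 of KO Control 24 h (up to 0.0643).

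Genotypes were compared by label within each condition. At Control 0 h 4 of 9 genes were called, where 12.5% of all genes were, 744 higher and 704 lower in KO-labelled libraries. Ncf1, Gpx1 and Cybb were higher in KO-labelled libraries and Cyba was lower. In the other conditions 0 of 9 were called by edgeR, against 0.49% of all genes at Control 2 h, 0.146% at palmitate 2 h, 0.465% at LPS 2 h, 0.12% at Control 24 h, 0.0688% at palmitate 24 h and 0.146% at LPS 24 h. DESeq2 called 0 of 9 in each of these 6, and 11 of the 54 values passed an unadjusted p under 0.05. Over all genes 1172, 1032, 1342, 587, 891 and 1056 of 11624 passed it in these conditions, in the order given above. The 54 log2 fold changes lay between -0.21 and 0.28, with bounds of the 95% intervals between -0.35 and 0.48.

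**Figure D5:**
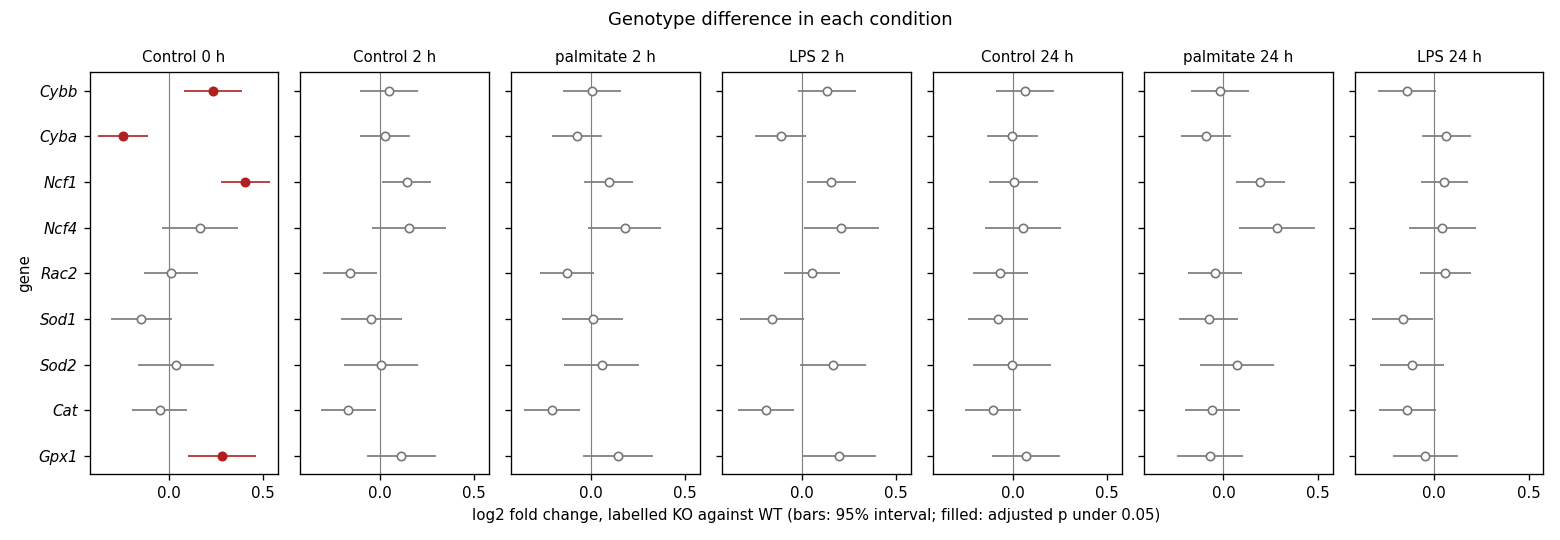
Log2 fold change of KO-labelled against WT libraries for the 9 genes in each of the 7 conditions, with 95% intervals from edgeR; filled red points have an adjusted p under 0.05. Filled points appear at Control 0 h for Cybb, Cyba, Ncf1 and Gpx1 and in no other condition.

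Ncf1 had the largest difference at Control 0 h, with 387, 385 and 347 CPM in WT and 506, 423 and 552 CPM in KO-labelled libraries. Every KO-labelled library lay above every WT library, a difference of 0.40 ± 0.0646 (SE) on the log2 scale (adjusted p = 1.7e-05). Cyba held 349, 341 and 345 CPM in WT and 261, 314 and 299 CPM in KO-labelled libraries, all lower, at -0.24 ± 0.0657 (SE) (adjusted p = 0.00961).

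Cybb held 1466, 1424 and 1377 CPM in WT and 1760.2, 1453 and 1809.5 CPM in KO-labelled libraries, and library 2 of the latter lay inside the WT range (0.24 ± 0.0768 (SE), adjusted p = 0.0351). Gpx1 held 169, 151 and 165 CPM in WT and 207, 160.3 and 222 CPM in KO-labelled libraries, and again library 2 lay inside the WT range (0.28 ± 0.0894 (SE), adjusted p = 0.0315).

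Libraries 1 and 3 of KO Control 0 h also stood apart from library 2 in Slc5a3, a gene outside the lists, picked after seeing the data. Slc5a3, an inositol transporter, held 256, 109.9 and 289 CPM in the 3 libraries and 42.6 to 51.2 CPM in WT Control 0 h. All 3 KO-labelled libraries thus lay above WT for this gene. Without both libraries the log2 fold changes at Control 0 h were 0.18 for Ncf1, -0.14 for Cyba, 0.03 for Cybb and -0.02 for Gpx1. This left 1 KO-labelled library, assumed to vary like the other groups. Library 2 lay nearest to WT for each of these genes, so smaller differences followed from the choice of libraries. Leaving out 1 library at a time, the count of called genes was between 1 and 4. Cybb was lost without any 1 of the WT libraries or library 1 or 3 of the KO-labelled ones (adjusted p up to 0.201), Gpx1 without WT library 2 or 3 or KO-labelled library 1 or 3 (up to 0.261), and Cyba without KO-labelled library 1 (0.17).

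At Control 0 h markers of other cells also differed between the labels, with 2 of 7 granulocyte markers tested and 3 of 3 fibroblast markers tested called higher in KO-labelled libraries. The 1 B cell marker tested, Cd79b, was called lower there, with means of 4.56 CPM against 9.22 CPM in WT (adjusted p = 0.045). The 12 granulocyte markers summed to between 59.2 and 69.5 CPM in WT Control 0 h and between 101 and 111 CPM in KO Control 0 h, and granulocytes too express the oxidase genes. In the other conditions outside LPS 24 h the sum was 34.4 to 99.6 CPM in WT and 80.6 to 252 CPM in KO-labelled libraries. Within each of them every KO-labelled library lay above every WT library. WT held 34.4 to 47.4 CPM at Control 2 h and 69.8 to 74.6 CPM at Control 24 h. KO-labelled libraries held 80.6 to 148 CPM and 151 to 227 CPM there. Of the 9 genes 0 were called between genotypes in these conditions, where only 0.0688 to 0.49% of all genes were. The 5 fibroblast markers summed to between 0 and 58.7 CPM in WT libraries and between 0 and 306 CPM in KO-labelled ones. Erythroid markers stayed at or under 0.865 CPM in every library, with Hbb-bs at 0. The part of these markers in the genotype differences was not tested. At LPS 24 h the granulocyte sum was 344 to 456 CPM in WT and 333 to 404 CPM in KO-labelled libraries. Without Lcn2, which macrophages express too, it was 34.9 to 37.4 CPM in WT and 47.7 to 67.8 CPM in KO-labelled libraries, with no overlap.

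The difference between genotypes was itself compared between Control times, a contrast chosen after seeing the data. The difference of Ncf1 at 0 h exceeded that at 24 h by 0.40 on the log2 scale (adjusted p = 0.0121), 1 of 9 genes called, where 1.83% of all genes were. Against 2 h the difference of Ncf1 was larger by 0.26 (adjusted p = 0.0869) and that of Cyba more negative by 0.27 (adjusted p = 0.0774). Of the 9 genes 0 were called, where 4.77% of all genes were. An unadjusted p under 0.05 was reached by 2 of the 9 and by 2109 of all 11624 genes. For Cybb and Gpx1 a difference between the Control times was thus not shown.

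Over the 7 conditions some genes kept one sign, and the share of all genes that did so is not given here. Ncf1 and Ncf4 were higher in KO-labelled libraries in 7 of 7, by between 0.01 and 0.40 and between 0.04 and 0.28 on the log2 scale, and Cat was lower in 7 of 7, by between 0.05 and 0.21. Outside Control 0 h none of these values was called in the fit of all libraries. Cat was called at Control 2 h (-0.16, adjusted p = 0.0469) when only the libraries compared were fitted, and Ncf4 at palmitate 24 h (0.45, adjusted p = 0.0371) without library 2 of WT palmitate 24 h. At Control 0 h 1 of 8 tested oxidase partners, 1 of 9 peroxide enzymes, 2 of 9 thiol recycling genes and 2 of 6 NADPH supply genes were called, where 12.5% of all genes were. They were Prkcd (0.32), Prdx6 (0.42), Gclc (0.64), Glrx (-0.43), Idh1 (0.34) and Idh2 (-0.37). In the other 6 genotype comparisons 0 genes of these lists were called. The genes called at Control 0 h were named after their values were seen where the LPS comparisons had not already named them.

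Genes whose group means followed those of a member most closely over the 14 groups were listed by Pearson correlation of mean log2 CPM. The 14 points share the large step made by LPS at 24 h, so the values are a description. Sod2 was followed most closely by Mocs1 (0.996), Ptges (0.996) and Tma16 (0.993), Rac2 by Bst2, Trim30d and Epsti1 (0.992 to 0.994), Ncf1 by H2-T10 (0.987), F10 and Herc6, and Cybb by Osbpl3 (0.983), Sppl2a and Stxbp3. Cyba was followed by Pik3ap1 (0.974), Fndc3a and Tmbim6, Ncf4 by Fbrsl1 (0.967), Zmynd15 and Rhoq, and Gpx1 by Sirpb1c (0.97), Cnih4 and Psmc2. Cat was followed by Zcchc24 (0.982), Cadm1 and Mtss1. Sod1 had the loosest match, Gsto1 (0.944), with Dap and Gbe1 after it.

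The members also differed in how closely they followed each other. Among the 5 oxidase genes the correlation over the 14 groups was between 0.757 and 0.945. Cat ran against each of them, between -0.878 and -0.938, and Sod1 was loosely related to all, between -0.609 and 0.388.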

How the data were processed

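RNA-seq libraries of BMDM (stranded total RNA, ribodepleted) were counted per gene by the authors, and the deposited values are raw counts without normalisation. The submitters' processing notes name fastp 0.19.11 and STAR 2.7.3a, and STAR served to align reads to mm10 and to count them. The annotation release and whether counting used the strand are not given in the sources used here. Columns of the count table name a group but no replicate, so libraries are numbered 1 to 3 by column order, which pairs nothing. Chi-square over degrees of freedom was 1.93 to 9.32 in the 42 pairs of libraries within a group, so no column was a copy of another. These values do not show whether libraries of a group shared a culture or an RNA sample. Groups came from the labels.

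Differential tests used edgeR 4.0.16 under R 4.3.3 (filterByExpr, TMM, quasi-likelihood fit of 14 group means over 42 libraries, F test). The SE is the log2 fold change divided by the square root of F, and 95% intervals use 2.01 SE. Gene symbols were found for 32620 of 37310 identifiers. Lengths and positions came from GENCODE vM21 of GRCm38, the same assembly as mm10. The study's own test was DESeq2, run here (version 1.42.0) as an alternative. Further alternatives were a fit restricted to the compared libraries, RLE size factors, no filter beyond 1 count, and leaving out each library in turn. 2 alternatives and 2 contrasts were chosen after seeing the data. The fits were tested on simulated data. The members, the lists and the motifs were chosen with earlier results of these data known. The members are all named, and from each list the 2 largest called changes per direction and LPS comparison. 1 gene of the lists is not reported here.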

Additional observations from a re-analysis of the deposited data

Results flagged for a closer look

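The LPS effect differed between 2 and 24 h, by the test of that difference in edgeR over both genotypes, for all 9 genes. The differences of the log2 fold changes (24 h minus 2 h) were 0.68 for Cybb, 0.65 for Cyba, 0.57 for Ncf1, 0.59 for Ncf4, 1.36 for Rac2, 1.01 for Sod2, 0.67 for Gpx1, -0.21 for Sod1 and -0.81 for Cat, with adjusted p-values from 5.06e-22 (Rac2) to 0.0268 (Sod1). The palmitate effect differed between the same times for Cybb (0.29, adjusted p = 0.0354), Sod1 (0.35, adjusted p = 0.01) and Sod2 (0.55, adjusted p = 0.000765). The 2 effects share their Control libraries. Sod1 thus had a difference below 0 for LPS and above 0 for palmitate, and the calls for Sod1 with LPS and for Cybb with palmitate were lost in 11 and 16 of 28 alternative settings, each leaving out 1 library.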

How the results depend on the processing

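The 55 calls of the 9 genes over 23 comparisons kept their direction and significance with DESeq2 in 55 cases, with all genes of at least 1 count in 54, with only the compared libraries in 54 and with RLE in 53. Refits that left out 1 library kept a call in 519 cases and lost it in 75, and 0 of these settings turned a direction. At Control 0 h between genotypes Gpx1 turned to -0.0156 without libraries 1 and 3 of KO Control 0 h, which left 1 KO-labelled library. Among the other settings, counts of called genes moved by over 1.5 times in these cases. Between genotypes at Control 2 h the count went from 0 to 1 with only the compared libraries. For palmitate 24 h in KO-labelled libraries it went from 2 to 1 with RLE. For the palmitate effect at 24 h against 2 h it went from 3 to 5 with all genes and with only the compared libraries, and for Control 2 h against 0 h from 3 to 5 with only the compared libraries. The cause was not tested. Leaving out 1 library gave 1 to 4 genes between genotypes at Control 0 h, 0 to 1 at palmitate 24 h, 4 to 5 for LPS 2 h in each genotype, 8 to 9 (WT) and 9 to 9 (KO-labelled) for LPS 24 h, 8 to 9 for the LPS effect between times, 0 to 2 for palmitate 24 h in each genotype, 2 to 3 for the palmitate effect between times, and 1 to 4 and 3 to 6 for Control at 2 h and 24 h against 0 h. It gave 0 in every other comparison. No paired analysis was possible because the columns carry no replicate numbers. Over all genes, the 8 to 57 calls between genotypes outside Control 0 h became 55 to 190 with no filter beyond 1 count and 9 to 235 with only the compared libraries. The 0 calls of the LPS difference between genotypes at 2 h became 43 with no filter beyond 1 count, and the 99 and 102 calls of palmitate at 24 h became 167 and 182. With 3 libraries a group, a genotype difference that missed the threshold is limited to its interval and not shown to be absent.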
